A study of Homo sapiens with 12 samples.

Results

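The genes described here are 10 markers of liver stem and progenitor cells and of liver tumors, taken as a fixed list of symbols: GPC3, EPCAM, KRT19, PROM1, SOX9, CD24, CD44, ANPEP, DLK1 and S100P. Of these 10, 9 had an identifier among the 57773 gene identifiers of the count tables, and 7 of those were among the 22984 genes that passed the filter on low counts. CD24 matched no identifier, so no level of it can be given, and whether its reads were counted under another identifier is not known. CD44 and DLK1 were listed but nearly uncounted.

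RNA was sequenced from HuH-7, an established human hepatoma cell line, from a line with stable overexpression of V5-tagged wild-type (WT) HuR and a line with stable expression of V5-tagged HuR K120/182R. In the mutant a pair of lysines that can carry SUMO, a small ubiquitin-like modifier, is replaced by arginine. Each line gave 3 libraries of RNA recovered by RNA immunoprecipitation (RIP) with the V5 tag on HuR and 3 libraries of total input RNA, so that 12 libraries fall into 4 groups, called WT input, mutant input, WT RIP and mutant RIP. The labels do not say whether a line is 1 clone, whether the cells' own HuR was still made, or whether replicates were separate cultures, so the p-values rest on library-to-library spread that could be purely technical. The labels name no treatment, although the headers of all count columns carry the word DMSO, a solvent. No mock precipitate is used here, so a level in a precipitate could not be set against RNA that sticks to the beads. In bulk RNA like this, fewer cells that express a gene and less of its RNA per cell cannot be told apart.

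HuR, the product of ELAVL1, is an RNA-binding protein known for binding U-rich and AU-rich stretches, mostly in the 3′ ends of mRNAs. The markers come from different stages of the liver's life. GPC3 and DLK1 are made in fetal liver and again in liver tumors. EPCAM, KRT19, PROM1, SOX9, CD24 and CD44 mark bile duct cells, hepatic progenitors or tumor cells with stem-like properties, and ANPEP (CD13) is a surface peptidase used as a marker of dormant liver cancer stem cells. S100P is a small calcium-binding protein of many carcinomas.

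The 3′ untranslated region (UTR) is where HuR is best known to bind, so 1 window of it is shown for each of the 7 tested markers. For each gene the 30-base window of the 3′ UTR with the most bases in the motifs ATTTA and TTTTT is printed as DNA on the transcript's strand, 5′ to 3′, with the motif bases in capitals, from GENCODE 44 transcripts on GRCh37 (hg19).
GPC3, chrX:132670055-132670084, minus strand: tttcttaTTTTTTTctaTTTTTTTTTTTTT
SOX9, chr17:70121802-70121831, plus strand: TTTTTTTTTATTTAtctctttaatcTTTTT
PROM1, chr4:15970749-15970778, minus strand: ttcctgtctaTTTTTgTTTTTTacTTTTTT
ANPEP, chr15:90328147-90328176, minus strand: atctgtataTTTTTTTctaagagaaaatgt
EPCAM, chr2:47614098-47614127, plus strand: tacttgagtcttgtacatacatacTTTTTT
KRT19, chr17:39679880-39679909, minus strand: tcttctcctgacctgccaataaaaATTTAt
S100P, chr4:6698814-6698843, plus strand: gcttcccaaaagtgtttgttggcaattatt
Where windows tied, the one with the most T was printed, as for S100P, whose window held no motif base and 12 T. The motifs were searched on the transcript's strand, overlapping matches of TTTTT were each counted, and the motifs share no base with each other. GPC3 and SOX9 were the richest in TTTTT, at 31.7 and 30.6 matches per kb of 3′ UTR, against a median of 4.67 over 18628 coding genes. SOX9 held 8 ATTTA and 62 TTTTT in 2029 bases. PROM1 held 2 and 8 in 1165 bases, EPCAM 2 and 2 in 407, and ANPEP 0 and 3 in 454. KRT19 held 1 ATTTA and no TTTTT in 126 bases, and S100P neither motif in 128 bases. Of the 18628 UTRs, which had a median length of 1100 bases, 68.6% held ATTTA and 76.1% held TTTTT somewhere. A match is a string of letters and not a mapped binding site.

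Totals ran from 31774994 to 73149117 gene counts per library. Values below are in CPM, the counts of a gene relative to library size, with library sizes scaled by TMM (trimmed mean of M values), which sets levels relative to the typical gene. Scaling by the total count instead moved the median of all genes to 1.12 in the WT enrichment, 1.38 in the mutant enrichment, 0.25 in the difference of enrichments, −0.17 between precipitates and −0.43 between inputs, all on the log2 scale. Levels of hepatoma and hepatocyte genes ranged widely: alpha-fetoprotein (AFP) ran from 2460 to 9180 CPM and albumin (ALB) from 254 to 853 CPM over the 12 libraries, while the adult liver enzymes CPS1, TAT and CYP3A4 reached at most 3.49, 1.05 and 0.199 CPM. Of 10 markers of immune, stromal and endothelial cells 9 were matched and 4 were tested. The summed level of the 9 was 5.1 to 5.64 CPM in WT input, 6.44 to 6.66 in mutant input, 4.62 to 4.99 in WT RIP and 5.16 to 5.45 in mutant RIP. PTPRC, VWF, CDH5, COL1A1 and ACTA2 were each at 0 counts in at least 1 library, and the part of these genes in any difference between the lines was not tested.

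The levels of the markers spanned a wide range, from GPC3 at the top to KRT19 near the bottom. To set genes side by side, CPM were divided by exonic length in kb. In WT input the order was GPC3 at 95.8 ± 2.55 (SD, n = 3), S100P at 17.2 ± 1.14, EPCAM at 13.5 ± 1.56, PROM1 at 10.3 ± 0.915, SOX9 at 7.54 ± 0.362, ANPEP at 4.25 ± 0.563 and KRT19 at 0.463 ± 0.123 CPM per kb. Neighbours in that order did not overlap in their libraries, here and in mutant input. In mutant input S100P stood at 54.8 ± 3.68 CPM per kb, closer to GPC3 at 76.7 ± 2.45, and SOX9 (8.48 ± 0.357) stood above PROM1 (5.48 ± 0.609). EPCAM (11.1 ± 0.565), ANPEP (4.22 ± 0.389) and KRT19 (1.37 ± 0.229) kept their places. In WT RIP the libraries of GPC3 (22.2 to 29 CPM per kb) and S100P (15.9 to 25.2) overlapped, and in mutant RIP S100P (37.9 to 70.2) lay above GPC3 (22.5 to 25.1). The exons are the union over all annotated transcripts, so the level of a gene with many isoforms, such as PROM1, is understated, and that of S100P rests on only 471 bases.

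**Figure D1:**
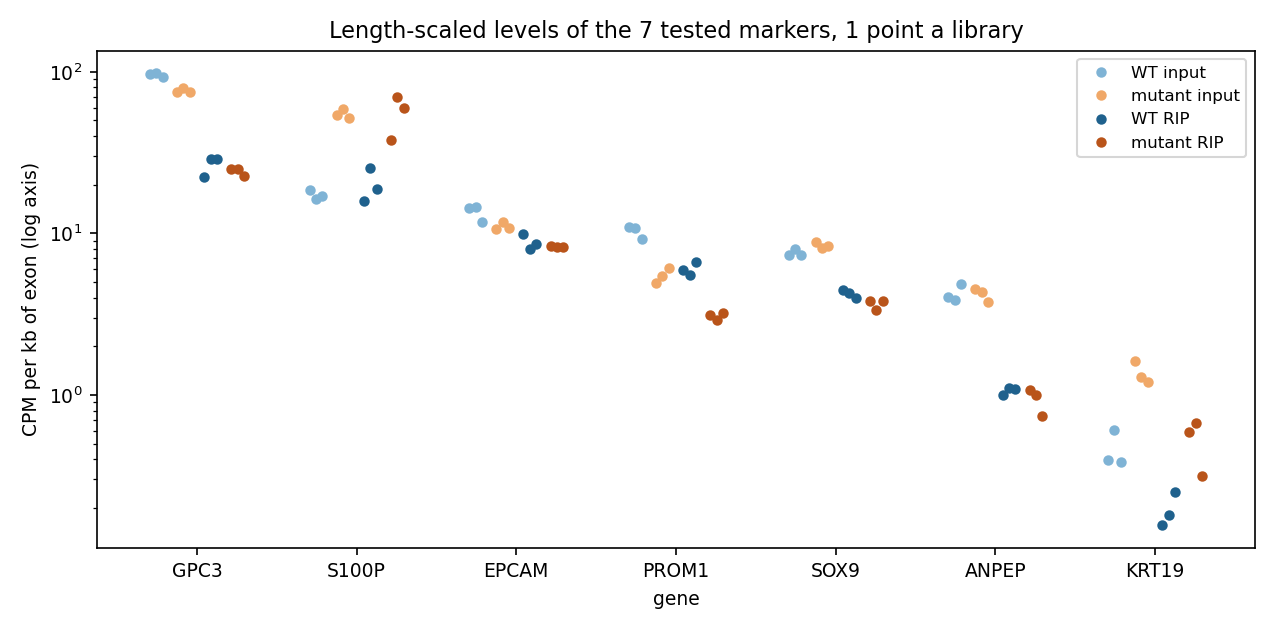
Levels of the 7 tested markers in CPM per kb of exon on a log axis, 1 point a library, with the 4 groups in color. GPC3 is highest in both inputs, S100P is higher in both groups of the mutant line, and KRT19 is lowest in every group.

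The first question was how the lines differed in the RNA of the cells. In the inputs, S100P and KRT19 were higher in the mutant line, by 3.17-fold and 2.98-fold, and PROM1 was lower by 1.88-fold. Thus 2 of the 7 tested markers were higher and 1 lower by edgeR's quasi-likelihood test (adjusted p under 0.05 over all genes), against 7.47% and 10% of all genes tested. The median of the 7 was −0.01 on the log2 scale, and that of all genes 0.00. GPC3, EPCAM, SOX9 and ANPEP did not pass the test.

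S100P (ENSG00000163993, chromosome 4, 6695605 to 6698897, plus strand) stood at 8.71, 7.65 and 8.02 CPM in WT inputs 1, 2 and 3 and at 25.5, 27.7 and 24.3 CPM in mutant inputs 1, 2 and 3. The groups were far apart relative to their spread, and every mutant library was above every WT library. The log2 difference was 1.67 ± 0.19 (SE of the fit; edgeR adjusted p = 4.92e-06). It remained past the threshold without any 1 of the 12 libraries (1.63 to 1.74) and was 1.22 when scaled by total counts.

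KRT19 (ENSG00000171345, chromosome 17, 39679869 to 39684560, minus strand), which encodes keratin 19 of bile duct epithelium, had the fewest counts of the tested markers. It had 44, 54 and 42 counts in the WT inputs and 128, 116 and 106 in the mutant inputs. This corresponds to 0.93, 1.41 and 0.9 CPM against 3.82, 3.02 and 2.8 CPM, with no overlap. The log2 difference was 1.58 ± 0.29 (edgeR adjusted p = 4.52e-04), with an SE wider than that of the other markers.

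PROM1 (ENSG00000007062, chromosome 4, 15964699 to 16086001, minus strand) encodes prominin 1 (CD133), a membrane glycoprotein of protrusions and a classic marker of stem-like tumor cells. It was at 81, 80.9 and 69.1 CPM in WT inputs 1, 2 and 3 and at 36.6, 40.4 and 45.6 CPM in mutant inputs 1, 2 and 3. The highest mutant library thus lay well below the lowest WT library. The log2 difference was −0.91 ± 0.12 (edgeR adjusted p = 1.16e-05). PROM1 shares 2.23% of its exon bases with FGFBP2 on the same strand.

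GPC3 (ENSG00000147257, chromosome X, 132669773 to 133121127, minus strand) encodes glypican 3, a heparan sulfate proteoglycan and serum and tissue marker of hepatocellular carcinoma. It was at 317, 321 and 305 CPM in the WT inputs and 247, 261 and 247 CPM in the mutant inputs. Its groups did not overlap, as was the case for 33.7% of all genes tested, but the log2 difference of −0.32 ± 0.13 did not pass the test (edgeR adjusted p = 0.0872). It passed when the 2 inputs alone were fitted (−0.30, edgeR adjusted p = 0.0329), where 11.1% of all genes tested were lower. It also passed with total counts (−0.76, edgeR adjusted p = 0.00102), where 29.7% were lower and the median of all genes was −0.43.

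EPCAM (ENSG00000119888, chromosome 2, 47572297 to 47614740, plus strand) encodes the epithelial cell adhesion molecule of progenitors and bile ducts. It was at 34.8, 35.2 and 28.5 CPM in the WT inputs and 26, 28.5 and 26.3 CPM in the mutant inputs, so that 1 library of each line stood at the same level. The log2 difference was −0.28 ± 0.12 (edgeR adjusted p = 0.105). It passed without WT input 3 (−0.38, edgeR adjusted p = 0.0443), where 9.12% of all genes tested were lower. It also passed with total counts (−0.72, edgeR adjusted p = 0.00324), where 29.7% were lower and the median of all genes was −0.43.

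SOX9 (ENSG00000125398, chromosome 17, 70117161 to 70122557, plus strand), a transcription factor of bile duct and progenitor cells, was at 28.8, 31.3 and 28.9 CPM in the WT inputs and 34.9, 32.1 and 33 CPM in the mutant inputs. The libraries did not overlap, but the log2 difference was only 0.17 ± 0.11 (edgeR adjusted p = 0.336) and turned to −0.26 with total counts. ANPEP (ENSG00000166825, chromosome 15, 90328126 to 90358633, minus strand) was at 20.3, 19.4 and 24.7 CPM in the WT inputs and 22.9, 21.9 and 19.1 CPM in the mutant inputs. These ranges overlapped widely, with a log2 difference of −0.01 ± 0.14 (edgeR adjusted p = 0.967).

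**Figure D2:**
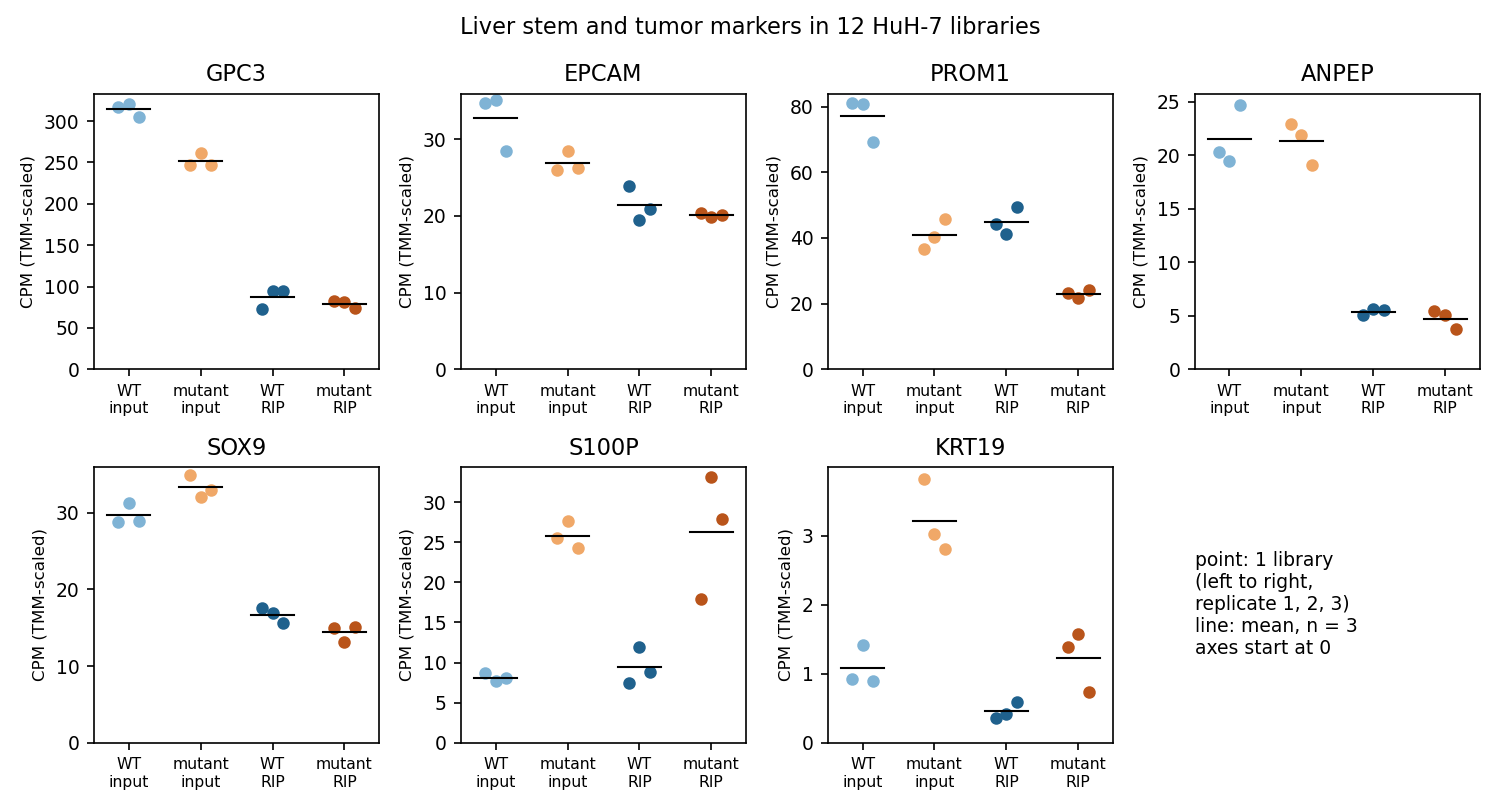
TMM-scaled CPM of the 7 tested markers in each of the 12 libraries (points) with the mean of each group of 3 (line), on linear axes that start at 0. S100P and KRT19 are higher and PROM1 is lower in the mutant line in inputs and precipitates, while GPC3 and ANPEP drop most from input to precipitate.

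CD44 and DLK1 could not be compared. CD44 (ENSG00000026508, chromosome 11, 35160429 to 35253949), the hyaluronan receptor, had 0, 0 and 2 counts in the WT inputs, 7, 0 and 4 in the mutant inputs, 2, 0 and 1 in WT RIP and 8, 0 and 6 in mutant RIP. DLK1 (ENSG00000185559, chromosome 14, 101192042 to 101204561), a Notch-like membrane protein of fetal hepatoblasts, had 0 counts in 9 of the 12 libraries and at most 4. A count of 0 allows up to 3 counts, which is 0.0421 to 0.0894 CPM across the libraries. That limit covers counting error only.

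Of CD24, a small glycoprotein of the cell surface, no identifier was matched in this annotation of hg19. The tables do hold CD24P4 (ENSG00000185275), annotated as a processed pseudogene of 243 bases on chromosome Y (21154353 to 21154595, minus strand). Its counts are given here after being seen, and whether they are reads of CD24 was not tested. CD24P4 was at 84.4 ± 5.63 CPM (SD, n = 3) in WT input, 78.8 ± 4.14 in mutant input, 62.3 ± 4.9 in WT RIP and 43.3 ± 1.35 in mutant RIP. It was lower in the mutant precipitate than in the WT precipitate (log2 −0.52 ± 0.11, edgeR adjusted p = 0.00182), and the inputs differed by −0.10 ± 0.11 (edgeR adjusted p = 0.605). Its enrichment was −0.44 ± 0.11 in the WT line and −0.86 ± 0.11 in the mutant line (edgeR adjusted p = 0.00215 and 4.43e-07), and the difference of these did not pass (edgeR adjusted p = 0.232).

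The next question was which marker RNAs were enriched or depleted in the HuR precipitate relative to the input. None of the 7 tested markers was higher in the precipitate by edgeR's test, where 25.6% of all genes tested were higher in the WT line and 29.0% in the mutant line. In each line 6 of the 7 were lower, against 25.4% and 28.0% of all genes tested. The same 6 had precipitates wholly below the inputs of their line, as had 28.8% and 30.3% of all genes tested. No marker was higher at an unadjusted p under 0.05 by edgeR, or at an adjusted p under 0.05 by DESeq2. The median of the 7 was −0.83 in the WT line, where all genes had 0.06, and −1.21 in the mutant line, where all genes had 0.07. S100P was the marker that did not pass. Depletion was not particular to these markers. Of 12 mature hepatocyte genes 11 were tested, and in each line 9 were lower and 0 higher. Their medians were −0.63 in the WT line and −0.97 in the mutant line. All of this is relative to the typical gene. With total counts, 2 of the 7 markers were higher and 2 lower in the WT line, against 68.6% and 3.82% of all genes tested. In the mutant line 3 of the 7 were higher and 1 lower, against 73.1% and 4.01%. The starting RNA was 16 to 77 ng in RIP and 250 ng in inputs, so RNA amount and precipitation cannot be told apart.

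ANPEP had the lowest enrichment in both lines with TMM scaling, from the inputs given above to 5.05, 5.62 and 5.49 CPM in WT RIP 1, 2 and 3 and 5.42, 5.03 and 3.74 CPM in mutant RIP 1, 2 and 3. The precipitates lay far below the inputs in both lines. ANPEP was lower by 3.98-fold in the WT line (log2 −1.99 ± 0.15, edgeR adjusted p = 6e-11) and by 4.47-fold in the mutant line (−2.16 ± 0.15, edgeR adjusted p = 8.25e-12). Of all genes tested, 1.88% had a lower value in the WT enrichment. With total counts ANPEP was still lower, at −0.95 and −0.85. With the trend of each library with GC content removed, it was at −1.51 in both lines, less depleted than GPC3 at −2.04 and −1.89.

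GPC3 followed, with 72.9, 94.5 and 95.2 CPM in WT RIP and 82.2, 81.7 and 73.9 CPM in mutant RIP, all far below the 247 to 321 CPM of the inputs. It was lower by 3.59-fold in the WT line (log2 −1.84 ± 0.13, edgeR adjusted p = 4.08e-11) and by 3.17-fold in the mutant line (−1.67 ± 0.13, edgeR adjusted p = 8.37e-11). With total counts these became −0.80, which passed, and −0.35, which did not (edgeR adjusted p = 0.0868). GPC3 had the densest TTTTT of the markers, seen in the window printed above.

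KRT19 had 22, 30 and 42 counts in WT RIP and 98, 96 and 32 in mutant RIP, or 0.364, 0.423 and 0.589 CPM against 1.38, 1.57 and 0.734 CPM. Each precipitate lay below all 3 inputs of its line. The enrichment was −1.22 ± 0.31 in the WT line (edgeR adjusted p = 0.00221) and −1.36 ± 0.28 in the mutant line (edgeR adjusted p = 1.79e-04). KRT19 had the highest transcript GC content of the markers, 61.8% against a median of 49.1% over coding genes. With the GC trend removed, its values became −0.53 and −0.47 and no longer passed (edgeR adjusted p = 0.15 and 0.141), and neither passed with total counts (−0.14 and −0.06).

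SOX9 and PROM1 were depleted less with TMM scaling alone. SOX9 was at 17.6, 16.9 and 15.6 CPM in WT RIP and 15, 13.2 and 15.1 CPM in mutant RIP, all below the lowest input. Its enrichment was −0.83 ± 0.11 in the WT line and −1.21 ± 0.12 in the mutant line (edgeR adjusted p = 1.17e-06 and 2.1e-09), and turned to 0.24 and 0.10 with total counts. SOX9 had the most matches of each motif among the tested markers, and its printed window holds both. PROM1 was at 44.2, 41.1 and 49.3 CPM in WT RIP and 23.3, 21.8 and 24.1 CPM in mutant RIP, again without overlap with the inputs of the same line. Its enrichment was −0.78 ± 0.12 and −0.83 ± 0.12 (edgeR adjusted p = 5.75e-06 and 2.08e-06). With total counts PROM1 was at 0.29 in the WT line, which did not pass (edgeR adjusted p = 0.187). In the mutant line it was at 0.48, which passed as higher in the precipitate (edgeR adjusted p = 0.0231). With the GC trend removed PROM1 was at −1.10 in the WT line and −1.27 in the mutant line, and SOX9 at −0.85 and −1.15. These were lower than the values of KRT19 under that setting.

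EPCAM was the least depleted of the 6 with TMM scaling alone. It was at 23.9, 19.5 and 20.9 CPM in WT RIP and 20.4, 19.9 and 20.1 CPM in mutant RIP. The precipitates were below the inputs by a small margin. The enrichment was −0.61 ± 0.12 in the WT line and −0.42 ± 0.12 in the mutant line (edgeR adjusted p = 1.22e-04 and 0.00419). With total counts EPCAM was higher in the precipitate in both lines (0.46 and 0.89, edgeR adjusted p = 0.0365 and 3.39e-05). With the GC trend removed its values were −0.92 and −0.81, lower than those of KRT19 (−0.53 and −0.47). SOX9 in the WT line, at −0.85, was then also depleted less than EPCAM.

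S100P stood apart, at 7.51, 11.9 and 8.84 CPM in WT RIP and 17.9, 33.1 and 27.9 CPM in mutant RIP. These values overlapped the inputs of the same line. Its enrichment was 0.21 ± 0.19 in the WT line (edgeR adjusted p = 0.362) and 0.03 ± 0.18 in the mutant line (edgeR adjusted p = 0.915), and with total counts it was 1.24 and 1.31 and passed in both. Its short 3′ UTR, part of which is printed above, held neither motif.

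The difference of the enrichments asked whether the lines differed in how far each RNA was enriched. None of the 7 markers was called in either direction by edgeR, against 0.0653% of all genes tested that were higher and 0% that were lower. DESeq2 also called none, against 1.65% of all genes higher and 0.239% lower, but gave no adjusted p for KRT19. SOX9 was the 1 marker with an unadjusted p under 0.05, at −0.38 ± 0.16 (mutant minus WT; edgeR adjusted p = 0.299). The others were GPC3 at 0.18 ± 0.18, EPCAM at 0.19 ± 0.17, KRT19 at −0.15 ± 0.43, PROM1 at −0.05 ± 0.17, ANPEP at −0.17 ± 0.20 and S100P at −0.19 ± 0.26. The SEs ran from 0.16 to 0.43, and a value of over 2 SEs, that of SOX9, did not pass.

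The precipitates were then compared with each other. S100P and KRT19 were higher and PROM1 was lower in the mutant precipitate, and GPC3, EPCAM, SOX9 and ANPEP did not pass. This gives 2 of 7 higher and 1 lower, against 9.87% and 9.76% of all genes tested, with a median of −0.14 for the 7 and 0.01 for all genes. S100P differed by 2.79-fold (log2 1.48 ± 0.18, edgeR adjusted p = 9.62e-06), KRT19 by 2.69-fold (1.43 ± 0.31, edgeR adjusted p = 0.00162) and PROM1 by 1.95-fold downward (−0.96 ± 0.12, edgeR adjusted p = 4.11e-06). The libraries of the lines did not overlap for these 3 and for SOX9, which was lower in all mutant libraries, as was the case for 35.6% of all genes tested. GPC3 differed by −0.14 ± 0.13, EPCAM by −0.09 ± 0.12, SOX9 by −0.21 ± 0.11 and ANPEP by −0.18 ± 0.15 (edgeR adjusted p = 0.492, 0.657, 0.217 and 0.442). The 3 called markers passed in the same direction with total counts, at 1.30, 1.25 and −1.15.

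**Figure D3:**
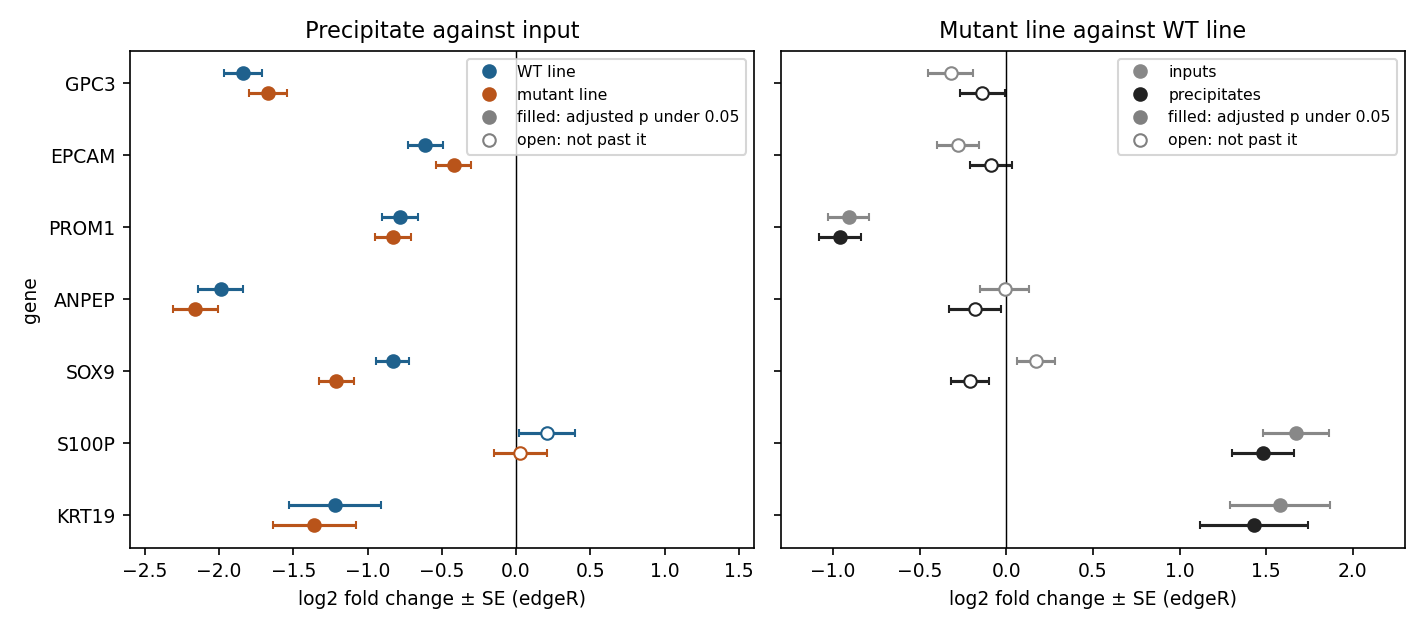
Log2 fold changes with the SE of the fit for the 7 tested markers, precipitate against input in each line (left) and mutant against WT in inputs and precipitates (right); filled points passed an adjusted p of 0.05 and open points did not. Depletion from the precipitate ranges from −0.42 to −2.16 for 6 markers, S100P lies near 0 there, and S100P, KRT19 and PROM1 are the markers that differ between the lines.

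Other genes known as stem, progenitor or oncofetal markers were described from a list of 30, of which 21 were tested. In the inputs 3 of the 21 were higher and 10 lower in the mutant line, against 7.47% and 10% of all genes tested, with a median of −0.42. With total counts 1 was higher and 13 lower, against 1.68% and 29.7% of all genes. CD9, a tetraspanin, differed most (log2 2.74 ± 0.28, edgeR adjusted p = 2.66e-07), from 0.418 ± 0.0707 CPM (SD, n = 3) to 2.79 ± 0.304. The retinaldehyde dehydrogenase ALDH1A1, a stem cell marker of several tissues, was lower (−1.44 ± 0.13, edgeR adjusted p = 5.43e-08), from 411 ± 36 to 152 ± 14.3 CPM. The imprinted gene PEG10 was lower as well (−1.05 ± 0.13), as was CD47 (−0.91 ± 0.17), which signals to phagocytes not to engulf the cell. Between precipitates 2 of the 21 were higher, a share near the 9.87% of all genes tested, and 6 were lower, against 9.76%, with a median of −0.23. With total counts 1 was higher and 7 lower, against 3.38% and 11% of all genes. PEG10 (−1.10 ± 0.13), ALDH1A1 (−1.11 ± 0.13) and CD9 (2.02 ± 0.26) had the smallest adjusted p, followed by the growth factor IGF2, which fell from 527 ± 68.3 to 263 ± 17.8 CPM.

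In the precipitates relative to the inputs, 2 of the 21 were higher and 11 lower in the WT line (median −0.45) and again 2 and 11 in the mutant line (median −0.49). Of all genes tested 25.6% were higher and 25.4% lower in the WT line, and 29.0% and 28.0% in the mutant line. With total counts 12 were higher and 0 lower in the WT line, and 14 higher and 1 lower in the mutant line, where 68.6% and 73.1% of all genes were higher and 3.82% and 4.01% lower. The adhesion receptor ICAM1 (−1.31 ± 0.14 and −1.34 ± 0.14 in the WT and mutant lines), the Golgi protein GOLM1 (−1.36 ± 0.16 and −1.87 ± 0.16) and integrin ITGA6 (−1.01 ± 0.12 and −1.09 ± 0.12) were lower in both lines. Genes were named by smallest adjusted p, and the 2 that were higher in each line were not among those. None of the 21 differed in enrichment between the lines by edgeR, against 0.0653% of all genes tested higher and 0% lower. DESeq2 also called none, against 1.65% and 0.239% of all genes. At an unadjusted p under 0.05 by edgeR 1 was higher and 2 lower, with no share of all genes to set beside them.

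The Wnt, Notch and Hippo pathways control progenitor and bile duct fates in the liver, and several of the markers are known targets. Of 38 genes of these pathways 34 were tested. In the inputs 4 of the 34 were higher and 6 lower, against 7.47% and 10% of all genes tested, with a median of 0.07. With total counts 1 was higher and 13 lower, against 1.68% and 29.7% of all genes. NOTCH1, a receptor, was higher in the mutant line (2.08 ± 0.27, edgeR adjusted p = 8.12e-06), from 1.56 ± 0.591 to 6.58 ± 1.59 CPM. The Hippo target ANKRD1 was lower (−1.63 ± 0.18, edgeR adjusted p = 6.74e-07), from 12.8 ± 1.96 to 4.1 ± 1.03 CPM. The Wnt receptor FZD5 was lower (−0.79 ± 0.12) and MYC higher (0.84 ± 0.12). Between precipitates 2 of the 34 were higher and 5 lower, against 9.87% and 9.76% of all genes tested, with FZD5 (−1.17 ± 0.12), ANKRD1 (−1.51 ± 0.17) and the Hippo target CCN1 (−1.09 ± 0.16) lower and the Wnt coreceptor LRP6 higher (0.78 ± 0.12). With total counts 1 was higher and 5 lower, against 3.38% and 11% of all genes.

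A pair of close relatives in this list differed in enrichment. The coreceptor LRP6 was higher in the precipitate (1.21 ± 0.12 in the WT line and 1.54 ± 0.12 in the mutant line) and its homolog LRP5 lower (−1.80 ± 0.15 and −1.99 ± 0.15). LRP6 went from 36.8 ± 2.62 CPM in WT input to 85.3 ± 10.5 in WT RIP, and LRP5 from 110 ± 17 to 31.7 ± 3.39. NOTCH3 (−2.02 ± 0.18 and −2.07 ± 0.19) and NOTCH2 (−0.91 ± 0.12 and −1.26 ± 0.12) were lower. In all, 8 of the 34 were higher and 10 lower in the WT line (median −0.08), close to the 25.6% and 25.4% of all genes tested. In the mutant line 8 were higher and 11 lower (median −0.09), against 29.0% and 28.0%. With total counts 26 were higher and 2 lower in the WT line and 25 and 3 in the mutant line, again near the shares of all genes (68.6% and 3.82%, and 73.1% and 4.01%). For the difference of enrichments edgeR called none of the 34, against 0.0653% of all genes tested higher and 0% lower. DESeq2 called 1 higher and 0 lower, against 1.65% and 0.239% of all genes. At an unadjusted p under 0.05 by edgeR 3 were higher and 4 lower, with no share of all genes to set beside them.

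Genes whose products bind or process the markers, or belong to the same families, were taken from a list of 28, of which 21 were tested. In the inputs 4 of the 21 were higher and 6 lower, against 7.47% and 10% of all genes tested, with a median of −0.16. With total counts 2 were higher and 11 lower, against 1.68% and 29.7% of all genes. S100A6, a relative of S100P, was higher in the mutant line (3.11 ± 0.30, edgeR adjusted p = 1.41e-07), from 0.43 ± 0.116 to 3.69 ± 0.771 CPM. TSPAN8, a tetraspanin found in complexes with EPCAM and CD44, was higher (1.56 ± 0.13, edgeR adjusted p = 1.46e-08), from 22.6 ± 2.33 to 66.9 ± 10.3 CPM. The tight junction protein CLDN7, a partner of EPCAM, was higher (1.04 ± 0.23), and the glypican GPC6, a relative of GPC3, lower (−0.98 ± 0.12). Between precipitates 4 were higher and 4 lower, against 9.87% and 9.76% of all genes tested, and 3 and 4 with total counts, against 3.38% and 11%. TSPAN8 (1.58 ± 0.13) and S100A6 (2.91 ± 0.27) had the smallest adjusted p. The hyaluronan synthase HAS2, also called, differed by a larger factor but at a very low level, 0.0204 ± 0.0179 CPM in WT RIP and 0.36 ± 0.0955 in mutant RIP.

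Against the input, 3 of these 21 were higher and 11 lower in the WT line (median −0.34), and 4 and 10 in the mutant line (median −0.01), against 25.6% and 25.4%, and 29.0% and 28.0%, of all genes tested. With total counts these were 12 and 2, and 16 and 2, against 68.6% and 3.82%, and 73.1% and 4.01%. The tetraspanin CD81 (−1.76 ± 0.14 and −1.98 ± 0.14) and the proteoglycan SDC1 (−1.51 ± 0.14 and −1.89 ± 0.14) were depleted, and S100A10, another relative of S100P, was higher in the precipitate (1.27 ± 0.14 and 1.06 ± 0.14). For the difference of enrichments edgeR called none, against 0.0653% of all genes tested higher and 0% lower. DESeq2 called 1 higher and 0 lower, against 1.65% and 0.239% of all genes. At an unadjusted p under 0.05 by edgeR 2 were higher and 1 lower, with no share of all genes to set beside them.

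**Figure D4:**
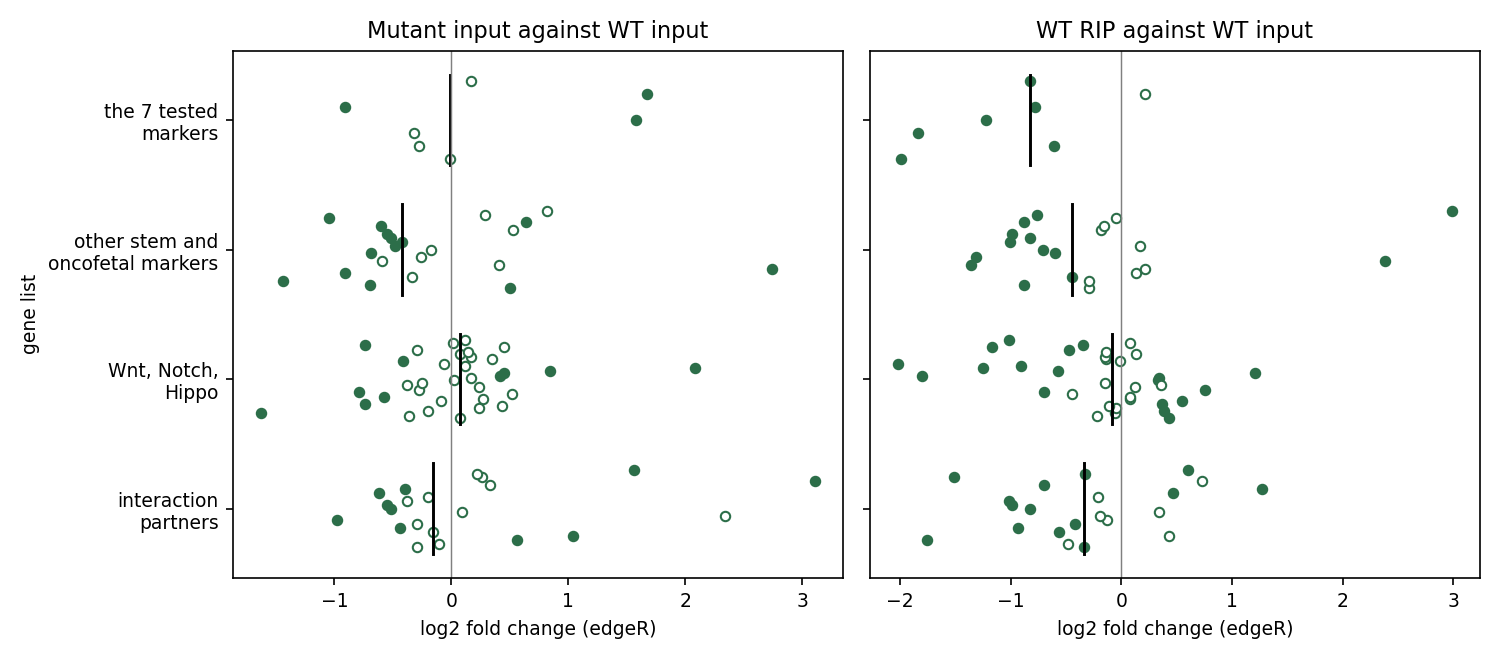
Log2 fold changes of the genes tested in 4 lists (each point 1 gene, filled where the adjusted p is under 0.05, vertical position within a list arbitrary; the black line is the list's median), mutant against WT input (left) and WT RIP against WT input (right). Medians in the left panel are −0.01, −0.42, 0.07 and −0.16 from top to bottom, and in the right panel −0.83, −0.45, −0.08 and −0.34.

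The genes with the most similar pattern of levels were looked up for S100P and KRT19, which had the largest input differences. Over the 12 libraries and 9650 coding genes, the log2 CPM of S100P correlated most with NHP2 (Pearson r = 0.975), EPS8L3 (0.96) and MTLN (0.956), and that of KRT19 with B4GALNT1 (0.964), NT5C (0.963) and GPX2 (0.959). The libraries of a group share line and precipitation, so these values describe a shared pattern over 4 groups more than 12 independent points.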

How the data were processed

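Stranded total RNA libraries from HuH-7 cells were deposited as raw counts per Ensembl gene, 1 table per library, not pooled; the authors' tools, per the submitters' processing notes, were bcl2fastq 2.20.0.422, cutadapt, STAR 2.4.0j and featureCounts 1.6.4 with hg19. Which annotation, strand setting and multi-mapping rule were used is not given in the sources used here. Identifiers were matched to GENCODE 44 on GRCh37 (55538 of 57773). Genes were kept by filterByExpr (minimum count 10), scaled by TMM (factors 1.32 to 1.78 in RIP, 0.526 to 0.909 in inputs) and fitted in 1 robust quasi-likelihood model with 4 groups in edgeR 4.0.16 (R 4.3.3, limma 3.58.1), 8 residual degrees of freedom, with Benjamini-Hochberg adjustment over 22984 genes. Replicates differed by more than sampling noise (chi-square per degree of freedom 13.6 to 203). Standard errors were derived from the F statistic. The fit was tested on simulated data for the comparison of inputs only, with the same spread for every gene. The enrichments and their difference were not simulated. Alternatives were other scalings, filters and subsets, DESeq2 1.42.0, a replicate block, removal of the GC trend and leaving out each library. The markers, lists, tests and alternatives were chosen with earlier results of these data known. All markers are named; of each other list up to 4 genes per comparison by smallest adjusted p, and for the 2 markers with the largest input difference the 3 most correlated coding genes of mean log2 CPM of at least 2.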

Additional observations from a re-analysis of the deposited data

How the results depend on the processing

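Of the values of single markers under the alternatives, 707 kept their direction and their side of the threshold. A further 5 kept their direction but no longer passed, and 6 kept it and newly passed. The other 30 changed sign, whether or not they passed. Total library size gave 11 of these changes of sign. With it the number of markers higher and lower became 2 and 2 in the WT enrichment, against 68.6% and 3.82% of all genes. In the mutant enrichment it became 3 and 1, against 73.1% and 4.01%. Between inputs 2 were higher and 3 lower, against 1.68% and 29.7%. EPCAM turned to 0.46 and 0.89, PROM1 to 0.29 and 0.48 and SOX9 to 0.24 and 0.10 in the WT and mutant enrichments, SOX9 to −0.26 between inputs, and ANPEP to 0.10, KRT19 to 0.08, PROM1 to 0.20 and S100P to 0.08 in the difference of enrichments. Of the enrichments that changed sign with total library size, EPCAM in both lines and PROM1 in the mutant line passed in the new direction. PROM1 in the WT line and SOX9 in both lines no longer passed. With the inputs alone fitted 2 markers were lower, GPC3 being added, against 11.1% of all genes tested. Leaving out 1 library gave 1 to 2 lower markers between inputs. The higher number came without WT input 3, when EPCAM passed and 9.12% of all genes tested were lower.

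The remaining changes of sign were of values near 0 that passed under neither setting. ANPEP between inputs became 0.02 with DESeq2 size factors, 0.03 with TMM from coding genes, 0.02 with the DESeq2 test, 0.01 with the stricter filter and 0.01 with the inputs alone, and ranged from −0.08 to 0.10 without 1 library. KRT19 in the difference of enrichments became 0.06 with the GC trend removed. Without 1 library the difference of enrichments ranged from −0.41 to 0.10 for KRT19, −0.16 to 0.03 for PROM1 and −0.38 to 0.03 for S100P, and the mutant enrichment of S100P from −0.18 to 0.24. The replicate block turned the mutant enrichment of S100P to −0.0033, and the block within line to −0.01, and neither block changed a call of a marker. The labels do not say that a shared number marks a shared culture or day, so the numbers were not taken to pair the libraries. Correlations of the deviations of same-numbered libraries ran from −0.52 to 0.61. Low counts limit KRT19, CD44 and DLK1.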
